A study of Mus musculus with 7 samples.

Results

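The 10 genes described here encode proteins that a growing neuron uses to extend and steer its processes: Gap43, Dcx, Dclk1, Tubb3, Map2, Mapt, Map1b, Stmn2, Stmn3 and Stmn4. They were taken by gene symbol from a table of 24047 genes, and all 10 symbols have a row. Of these, 9 passed a filter on low counts, as did 12875 genes in all, and 1, Stmn2, had no read. RNA was sequenced from SMB21, a medulloblastoma cell line labelled as Ptch mutant (strain background Ptch1tm1Mps/J, age Adult) that was kept as neurospheres. Ptch1 restrains the Hedgehog pathway, and every group carries this background. A lentiCRISPR vector brought in a guide against GFP (CRISPR-GFP, the control, 2 libraries), against Ofd1, a basal body gene (CRISPR-Ofd1, 3 libraries), or against Kif3a, which encodes a kinesin-2 motor subunit (CRISPR-Kif3a, 2 libraries), and RNA was taken 2 weeks after infection. The labels call the replicates biological, the series text counts 3 control replicates of which 2 were analysed here, and whether pools or clones were sequenced is not given in the sources used here.

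In a developing neuron the axon and dendrites are built on bundles of microtubules, polymers of alpha and beta tubulin. Structural microtubule-associated proteins of the MAP1, MAP2 and tau families bind along the polymer, doublecortin proteins bind between its protofilaments, and stathmins bind free tubulin and promote disassembly. The growth cone at the tip carries Gap43, a membrane protein bound by calmodulin and phosphorylated by protein kinase C. In the cerebellum, granule neuron progenitors, the cells from which Hedgehog-driven medulloblastoma can arise, switch on such genes as they leave the cell cycle and migrate.

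Libraries are named by target and replicate number (GFP library 1 is replicate 1 of the control). Library totals ran from 17961767 to 23022701 counts. Kif3a stood at 104 CPM (counts scaled to library size with TMM factors) in both control libraries, and the Kif3a libraries held 73.9 and 60.5 CPM (log2 fold change -0.63, adjusted p = 0.000854). Ofd1 stood at 22.5 and 23.1 CPM in the GFP libraries and at 20.99, 20.02 and 21.99 CPM in the Ofd1 libraries (log2 fold change -0.12, adjusted p = 0.398). It stood higher, at 31.6 and 29.0 CPM, in the Kif3a libraries (0.41, adjusted p = 0.0126, against the control and -0.53, adjusted p = 0.0399, for Ofd1 against Kif3a CRISPR). Against the control, the Ofd1 transcript does not check the label of the Ofd1 libraries. Of 10 granule neuron lineage markers 9 passed the filter and Gabra6, a marker of mature granule neurons, was at 0 in all 7 libraries; their summed level ran from 2464 to 2471 CPM in the GFP libraries, from 2780 to 3357 CPM in the Ofd1 libraries and from 3092 to 3101 CPM in the Kif3a libraries. The 14 microglia and macrophage markers summed to 55.0 CPM in GFP library 1 and to between 3.11 and 6.11 CPM in the other libraries. Of this list Cx3cr1 was at 0 throughout. For the members, the values without GFP library 1 are given beside each call that leaving it out ended. Markers of astrocytes and neural stem cells summed to between 1058 and 1172 CPM (Aqp4 at 0), with 1 gene called higher and 2 lower with either guide. Among them Sox2 ran from 56.2 to 57.2 CPM in the controls and from 30.9 to 36.8 CPM in the 5 CRISPR libraries, and Sox9, a factor of neural stem cells and glia, from 224 to 231 CPM and from 123 to 156 CPM. Slc1a2, a glutamate transporter, ran from 248 to 262 CPM and from 296 to 385 CPM. The part of either list in the members' levels was not tested. Endothelial markers summed to between 0.518 and 3.09 CPM (Cldn5 at 0) and fibroblast markers to between 1.28 and 1.77 CPM.

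The start-site windows of Dcx, Map1b and Dclk1 are shown first, because these members changed with both guides and have a window. RefSeq windows on GRCm38.p6 matched 6 of the 10 members, with 8 windows; Gap43, Mapt, Stmn2 and Stmn4 had no entry. Each run gives 250 bases before an annotated start, 5′ to 3′ on the gene's strand, with matches to 4 motifs, searched on both strands, in capitals. The motifs were the E-box CAGATG, the E-box with the letters CAGCTG, the Gli core CCACCCA and the box TATAAA; proneural factors bind E-boxes of these kinds. The windows lie at chrX:143933220-143933469 on the minus strand (Dcx), chr13:99516603-99516852 on the minus strand (Map1b), and chr3:55242114-55242363 and chr3:55461478-55461727 on the plus strand (the upstream and the downstream start of Dclk1).
Dcx: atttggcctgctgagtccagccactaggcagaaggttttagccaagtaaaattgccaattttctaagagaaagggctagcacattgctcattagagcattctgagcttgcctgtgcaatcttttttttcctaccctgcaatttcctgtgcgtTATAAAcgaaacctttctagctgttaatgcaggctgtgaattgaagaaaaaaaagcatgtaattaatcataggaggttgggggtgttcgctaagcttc
Map1b: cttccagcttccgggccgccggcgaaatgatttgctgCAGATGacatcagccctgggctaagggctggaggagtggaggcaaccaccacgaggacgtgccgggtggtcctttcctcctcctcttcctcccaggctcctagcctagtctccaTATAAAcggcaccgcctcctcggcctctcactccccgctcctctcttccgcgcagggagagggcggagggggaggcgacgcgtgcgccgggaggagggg
Dclk1 upstream start: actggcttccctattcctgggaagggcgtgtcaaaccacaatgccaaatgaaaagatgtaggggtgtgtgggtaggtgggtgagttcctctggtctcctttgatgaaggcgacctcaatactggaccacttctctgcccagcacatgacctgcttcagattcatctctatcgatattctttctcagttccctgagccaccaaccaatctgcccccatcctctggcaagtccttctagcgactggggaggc
Dclk1 downstream start: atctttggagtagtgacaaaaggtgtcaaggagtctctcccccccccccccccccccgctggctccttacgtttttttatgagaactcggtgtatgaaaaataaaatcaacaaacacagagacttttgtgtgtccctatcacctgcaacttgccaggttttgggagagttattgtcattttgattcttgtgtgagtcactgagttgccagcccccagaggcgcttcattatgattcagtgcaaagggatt

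The Dcx and Map1b windows each hold TATAAA, 98 and 99 bases before the start, and 12.4% of all 32851 windows hold these letters. A second annotated Dcx start lies close by, and its window holds the same TATAAA at 193 bases. Map1b also holds CAGATG, 213 bases before the start, as does Stmn3 at 75 bases; 14.4% of all windows do. Neither Dclk1 window holds any of the 4 motifs, and no member window holds CAGCTG (13% of all) or CCACCCA (8.11% of all). These are matches of letters and not shown to be sites. The count table gives 1 value per gene, so reads from the upstream and the downstream start of Dclk1 were not separated.

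With either guide, Gap43, Dcx and Map1b were higher and Dclk1 was lower than in GFP control. Tubb3 and Mapt were also called higher in Ofd1 CRISPR. Of the 9 tested members 5 rose, 1 fell and 3 did not pass in Ofd1 CRISPR, where 6.79% of all tested genes were called higher and 8.09% lower. In Kif3a CRISPR 3 rose, 1 fell and 5 did not pass, beside 9.19% and 10.9% of all tested genes. The members were chosen with earlier results of these data known, so these counts are no test of the members as a group. A call is an adjusted p under 0.05 from edgeR's quasi-likelihood test over all 12875 genes. The members' median log2 fold change was 0.39 in Ofd1 CRISPR and 0.060 in Kif3a CRISPR, against medians of 0.0028 and 0.0080 over all tested genes. All libraries of Ofd1 CRISPR lay above both controls for 6 members and below them for 2, where 24.5% and 25% of all genes did so; for Kif3a CRISPR it was 3 above and 2 below, with 34% and 32.4% of all genes. The 2 comparisons share the control libraries, so they are not independent of each other. In these bulk cultures fewer cells of a type and less RNA per cell cannot be told apart.

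Leaving out GFP library 1 or GFP library 2 in turn, 2 members rose in Ofd1 CRISPR in place of 5, and without Ofd1 library 1 it was 3. In Kif3a CRISPR the same 3 rises were called in each of these fits, and the 1 fall was not called without GFP library 1 or 2 or Kif3a library 1 or 2. The background fell too: where 1915 genes were called in Ofd1 CRISPR with all libraries, it was 675 and 816 without GFP library 1 and 2, and where 2584 were called in Kif3a CRISPR it was 1099 and 1362 without these and 686 without Kif3a library 1. Scaled by library totals alone, 57.6% of the genes called in Ofd1 CRISPR were higher, against 45.6% with TMM factors; that scaling shifted the median of all genes by 0.035 on the log2 scale.

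**Figure D1:**
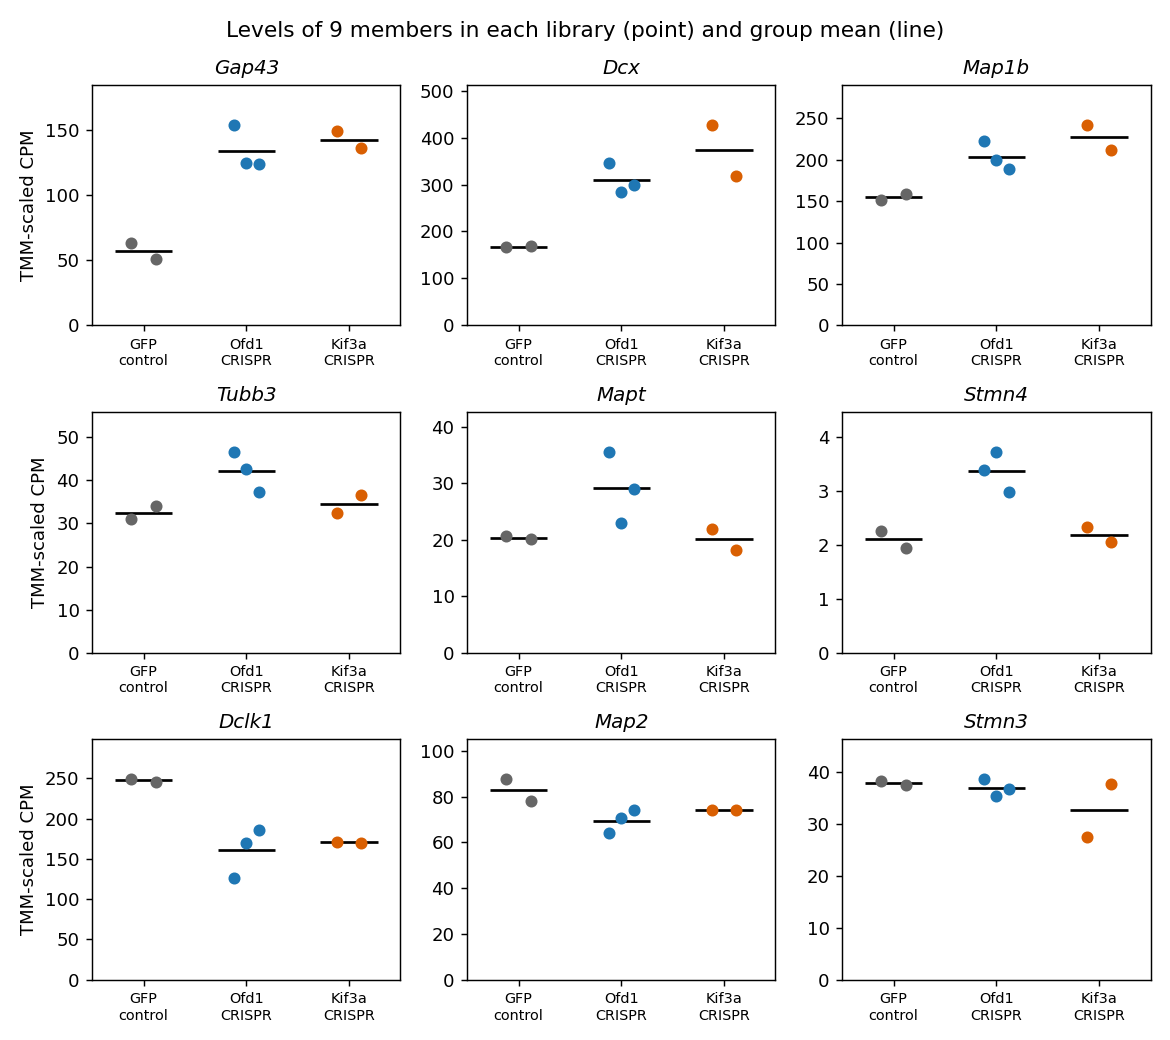
Level of 9 members in each of 7 libraries (points, TMM-scaled CPM, axes from 0) by group, with the group mean (line). Gap43, Dcx and Map1b lie higher and Dclk1 and Map2 lower in every CRISPR library than in both controls, while Tubb3, Mapt and Stmn4 lie above both controls in the 3 Ofd1 CRISPR libraries.

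Gap43, the growth cone protein, showed the largest change of the members. It stood at 63.5 and 51.2 CPM in the GFP libraries, at 154.0, 125.0 and 123.7 CPM in the Ofd1 libraries, with 149.0 and 136.0 CPM in the Kif3a libraries. The lowest CRISPR library was thus far above the higher control, and the Ofd1 and Kif3a libraries overlapped. The rise was 2.34-fold in Ofd1 CRISPR (log2 1.23, SE 0.116, adjusted p = 0.000208) and 2.49-fold in Kif3a CRISPR (log2 1.31, SE 0.124, adjusted p = 6.44e-05). It held without any 1 of the 7 libraries and in all 8 other fits, for either guide. The 95% interval of the log2 difference between Ofd1 and Kif3a CRISPR ran from -0.32 to 0.15.

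Dcx, which encodes doublecortin, a microtubule protein of migrating neurons, was at 166.9 and 169.1 CPM in the GFP libraries. It was at 345.6, 283.7 and 299.7 CPM in the Ofd1 libraries, with 426.7 and 318.7 CPM in the Kif3a libraries. Every CRISPR library lay well above the controls, which differed by little, and Kif3a library 1 was the highest of all. Dcx rose by 0.88 on the log2 scale in Ofd1 CRISPR (SE 0.118, adjusted p = 0.000822) and by 1.15 in Kif3a CRISPR (SE 0.127, adjusted p = 0.000145). These calls also held without any 1 library and in all 8 other fits.

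Dclk1, a doublecortin relative that joins the same microtubule-binding domains to a kinase domain, went the other way. Its level was 248.7 and 245.8 CPM in the GFP libraries, 126.3, 170.3 and 186.2 CPM in the Ofd1 libraries and 170.9 and 169.8 CPM in the Kif3a libraries. All 5 CRISPR libraries were below both controls, and Ofd1 library 1 was the lowest. Dclk1 fell by 0.62 in Ofd1 CRISPR (SE 0.122, adjusted p = 0.00634), a call kept without any 1 library and in all 8 other fits. It fell by 0.54 in Kif3a CRISPR (SE 0.135, adjusted p = 0.0161), a call also kept in all 8 other fits. This call did not pass without GFP library 1 (0.0762) or 2 (0.0569) or Kif3a library 1 (0.145) or 2 (0.0984), with log2 values between -0.54 and -0.53. Short stretches of Dclk1 and Map2 exons, of 27 to 124 bases, overlap annotated genes on the opposite strand that are not in the count table; reads of both strands cannot be told apart there unless counting used the strand, which is not recorded. Dclk2, another doublecortin-like kinase gene, named outside the rule for named genes, had log2 fold changes of 0.047 and 0.0051 (adjusted p = 0.691 and 0.974).

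The summed level of 9 oligodendrocyte lineage markers was also lower with either guide: 299 to 314 CPM in the GFP libraries, 127 to 210 CPM in the Ofd1 libraries and 126 to 165 CPM in the Kif3a libraries. Most of that sum was Pdgfra, a growth factor receptor of oligodendrocyte precursors and mesenchyme, which fell with log2 fold changes of -1.02 (adjusted p = 0.0126) and -1.26 (adjusted p = 0.00605). The defining markers Sox10 and Mog were at 0 in all 7 libraries, and Olig1 and Olig2 were under 1 CPM in each. The part of these transcripts in the fall of Dclk1 was not tested.

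Set side by side per kilobase of gene length, Dcx and Dclk1 changed order. The ratio of Dcx to Dclk1, a measure chosen after the values were seen, was 0.812 and 0.832 in the GFP control libraries. It was 3.31, 2.01 and 1.95 in Ofd1 CRISPR and 3.02 and 2.27 in Kif3a CRISPR. Dclk1 was the more abundant transcript per length in both controls and Dcx in all 5 CRISPR libraries. This ratio within a library does not depend on the scaling between libraries.

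**Figure D2:**
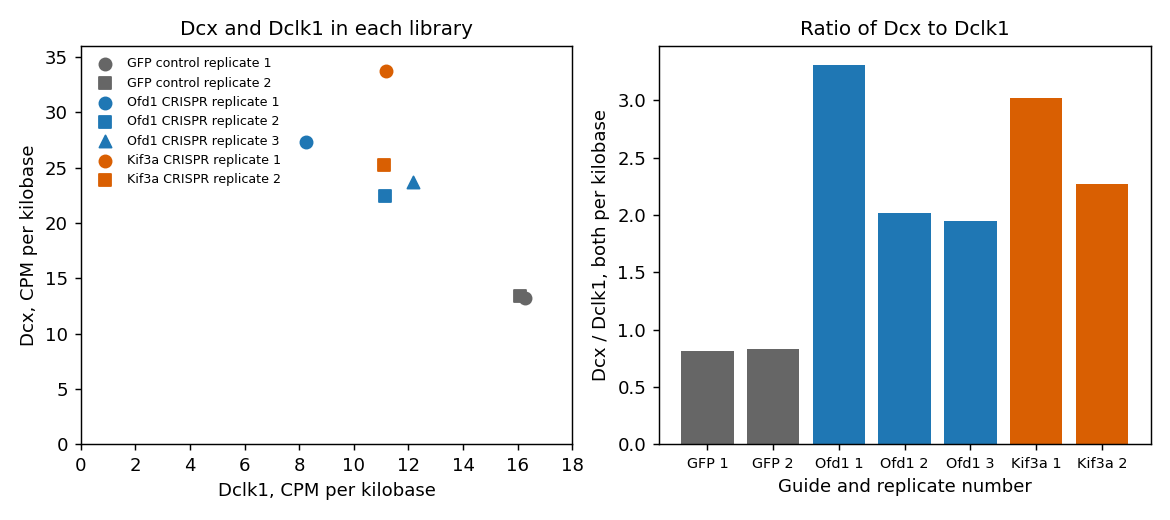
Left, Dcx against Dclk1 in each of 7 libraries (TMM-scaled CPM per kilobase of gene length, linear axes from 0). Right, the ratio of both per library (bars from 0), which is 0.812 and 0.832 in the controls and between 1.95 and 3.31 in the 5 CRISPR libraries.

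Map1b, a large microtubule-associated protein that is abundant in extending axons, rose with both guides. It stood at 151.5 and 158.8 CPM in the GFP libraries, at 222.8, 199.5 and 189.2 CPM in the Ofd1 libraries, with 241.8 and 212.2 CPM in the Kif3a libraries. The CRISPR libraries were all higher than the controls and overlapped with each other. The rise was 0.55 on the log2 scale in Kif3a CRISPR (SE 0.0923, adjusted p = 0.00183), kept without any 1 library. It was 0.39 in Ofd1 CRISPR (SE 0.0851, adjusted p = 0.0102), which no longer passed without GFP library 1 (0.115) or 2 (0.0518).

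Tubb3, the beta tubulin isotype used as a marker of young neurons, was at 31.1 and 33.96 CPM in the GFP libraries. It was at 46.6, 42.7 and 37.4 CPM in the Ofd1 libraries, with 32.4 and 36.5 CPM in the Kif3a libraries. The Ofd1 libraries lay above every other library, and the Kif3a libraries overlapped the controls. Tubb3 rose by 0.38 in Ofd1 CRISPR (SE 0.102, adjusted p = 0.0295), and the call was lost without GFP library 1 (0.239) or 2 (0.0879) or Ofd1 library 1 (0.0760) or 2 (0.0729). In Kif3a CRISPR its log2 fold change was 0.082 (95% interval -0.16 to 0.33, adjusted p = 0.642). The genes of the tubulin family resemble each other in their coding parts, and how reads that fit several of them were counted is not given in the sources used here.

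Mapt, which encodes tau, the main microtubule-associated protein of axons, stood at 20.6 and 20.1 CPM in the GFP libraries. The Ofd1 CRISPR libraries held 35.5, 22.9 and 28.9 CPM, the widest relative spread of the 9 members in that group, and the Kif3a CRISPR libraries 21.98 and 18.2 CPM. All 3 Ofd1 libraries exceeded both controls, although Ofd1 library 2 did so by little. Mapt rose by 0.52 in Ofd1 CRISPR (SE 0.156, adjusted p = 0.0456), near the threshold. Of the 7 fits without 1 library the call held in 1, without Ofd1 library 2, and it was lost without GFP library 1 (0.175) or 2 (0.191), Ofd1 library 1 (0.105) or 3 (0.0623), or Kif3a library 1 (0.0735) or 2 (0.0728). In Kif3a CRISPR the log2 fold change was -0.019 (95% interval -0.39 to 0.36, adjusted p = 0.954), and its sign turned when libraries were scaled by their totals alone (0.013).

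Map2, the dendritic relative of tau, stood at 87.5 and 78.3 CPM in the GFP libraries, at 64.0, 70.5 and 73.9 CPM in the Ofd1 libraries, with 74.3 and 73.98 CPM in the Kif3a libraries. Every CRISPR library was below both controls. The log2 fold changes, -0.25 (SE 0.0802, adjusted p = 0.0526) and -0.16 (SE 0.0880, adjusted p = 0.221), did not pass. The first was called without Ofd1 library 3 (0.0231).

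Of the stathmins, which bind free tubulin, none was called with either guide in the main edgeR fit, with TMM factors and no replicate block. At an unadjusted p under 0.05 in that fit stood Stmn4 in Ofd1 CRISPR. Stmn4 was low, with 38 to 69 reads per library; its level was 2.26 and 1.95 CPM in the GFP libraries, 3.40, 3.73 and 2.98 CPM in the Ofd1 libraries and 2.33 and 2.05 CPM in the Kif3a libraries. All Ofd1 libraries were above all others, with a log2 fold change against GFP of 0.67 (SE 0.210, adjusted p = 0.0512) that was called without Ofd1 library 3 (0.0369). Stmn3 stood at 38.3 and 37.6 CPM in the GFP libraries, at 38.6, 35.4 and 36.8 CPM in the Ofd1 libraries, with 27.6 and 37.8 CPM in the Kif3a libraries. Kif3a library 1 alone was low, and the log2 fold change in Kif3a CRISPR was -0.22 (SE 0.124, adjusted p = 0.231), but -0.46 without Kif3a library 2 (adjusted p = 0.0204). In Ofd1 CRISPR it was -0.038 (95% interval -0.28 to 0.21). Stmn2, a stathmin of growth cones, had 0 reads in all 7 libraries, which allows at most 3 counts, or 0.130 to 0.167 CPM, in a library for counting error only. How reads that fit several places were counted is not recorded, and whether this bears on the 0 was not tested. Stmn1, the stathmin of dividing cells, stood at 111 ± 2.30 CPM (SD, n = 2) in GFP control, with log2 fold changes of 0.033 and 0.00086 (adjusted p = 0.794 and 0.996).

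**Figure D3:**
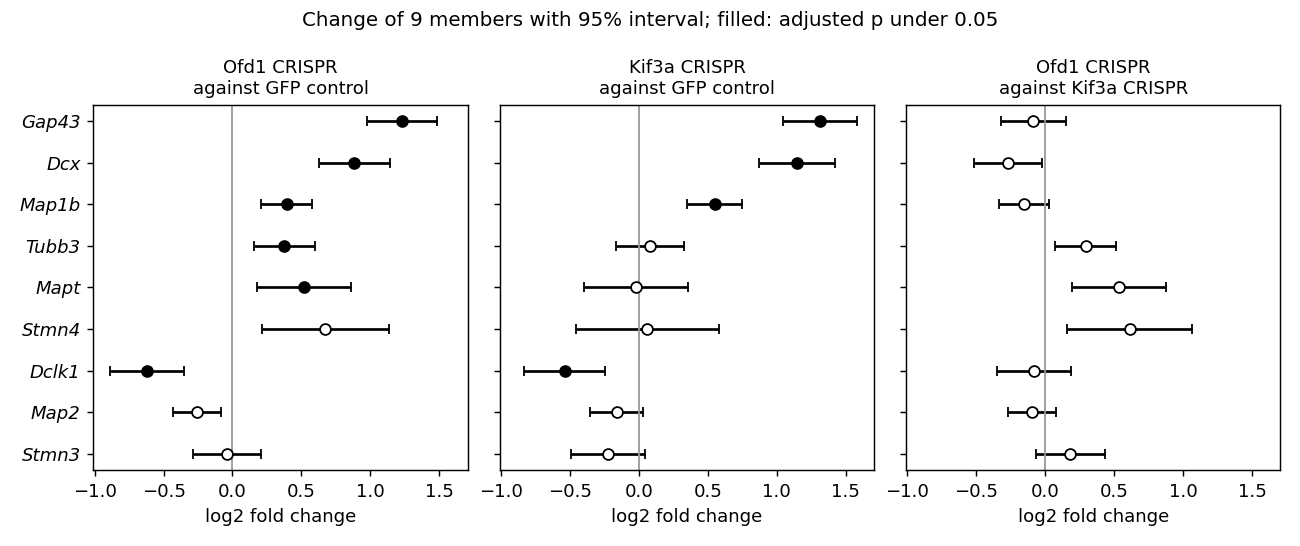
Log2 fold change of 9 members in 3 comparisons (points) with 95% intervals (bars); filled points have an adjusted p under 0.05. Gap43, Dcx and Map1b are filled to the right and Dclk1 to the left for both guides, Tubb3 and Mapt are filled for Ofd1 CRISPR, and no point is filled for Ofd1 CRISPR against Kif3a CRISPR.

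Whether the guides differed from each other was tested directly. No member was called in Ofd1 CRISPR against Kif3a CRISPR by edgeR without a replicate block, DESeq2 or limma-voom, where edgeR called 0.171% of all genes higher and 0.00777% lower. At an unadjusted p under 0.05 stood 4 members, as did 9.55% of all tested genes: Mapt (log2 0.54, SE 0.156, adjusted p = 0.276), Stmn4 (0.61, SE 0.208, adjusted p = 0.394), Tubb3 (0.29, SE 0.102, adjusted p = 0.403) and Dcx (-0.27, SE 0.113, adjusted p = 0.488). Mapt, Stmn4 and Tubb3 were higher in all 3 Ofd1 libraries than in both Kif3a libraries, and Map2 was lower, by little. The other 5 tested members, Dcx among them, overlapped. The share of all genes that separate in this way is not given for this comparison, so these counts only describe the libraries. With the replicate number as a block, edgeR called Mapt (0.53, adjusted p = 0.0480) and did not call Tubb3 (0.38, adjusted p = 0.0514) or Stmn4 (0.69, adjusted p = 0.151). The 95% intervals of the difference ran from 0.20 to 0.88 for Mapt, from 0.16 to 1.07 for Stmn4 and from 0.072 to 0.52 for Tubb3.

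Libraries of 1 group differed among themselves. Of the 9 members 6 were highest within their group in Ofd1 library 1, which was also lowest for Dclk1 and Map2. Kif3a library 1 was the higher of its pair for 7 members and the lower for Tubb3 and Stmn3. The sum of the granule neuron lineage markers was likewise highest in Ofd1 library 1. In that list 4 of the 9 tested genes rose and 1 fell with either guide. Of all tested genes 6.79% were called higher and 8.09% lower in Ofd1 CRISPR, and 9.19% and 10.9% in Kif3a CRISPR. The gene that fell was Rbfox3, at 277 and 289 CPM in the GFP libraries and between 185 and 228 CPM in the CRISPR libraries. Atoh1, Barhl1 and Pax6 stood above both controls in every CRISPR library. The part of the lineage markers in the members' levels was not tested.

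Per kilobase of exon in GENCODE M21, the order of mean levels in GFP control was Gap43 (37.6 ± 5.70 CPM per kilobase, SD, n = 2), Stmn3 (33.4 ± 0.436), Tubb3 (17.4 ± 1.08), Dclk1 (16.2 ± 0.131), Dcx (13.3 ± 0.119), Map1b (9.79 ± 0.329), Map2 (5.04 ± 0.398), Mapt (2.71 ± 0.0466) and Stmn4 (1.10 ± 0.113). The ranges of Gap43 and Stmn3 over the 2 libraries overlapped, and those of the other neighbours did not. In Ofd1 CRISPR the order became Gap43 (88.1 ± 11.2 CPM per kilobase, SD, n = 3), Stmn3 (32.5 ± 1.41), Dcx (24.5 ± 2.54), Tubb3 (22.6 ± 2.47), Map1b (12.9 ± 1.09), Dclk1 (10.5 ± 2.03), Map2 (4.23 ± 0.306), Mapt (3.87 ± 0.837) and Stmn4 (1.76 ± 0.195), where Dcx and Tubb3, Map1b and Dclk1, and Map2 and Mapt overlapped. In Kif3a CRISPR Dcx (29.5 ± 6.03 CPM per kilobase, SD, n = 2) and Stmn3 (28.8 ± 6.34) overlapped behind Gap43 (93.6 ± 6.05). Gap43 had the highest level of the members in each of the 7 libraries, by little over Stmn3 in GFP library 2 (33.6 against 33.1 CPM per kilobase). Tubb3, a tubulin of neurons, was far below the leading tubulins: Tubb5, the beta tubulin of dividing cells, stood at 554 ± 2.65 CPM per kilobase and Tuba1a at 302 ± 15.3 in GFP control (SD, n = 2). The lengths join all annotated exons of a gene, so a level per kilobase understates a gene whose cells use a shorter form.

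**Figure D4:**
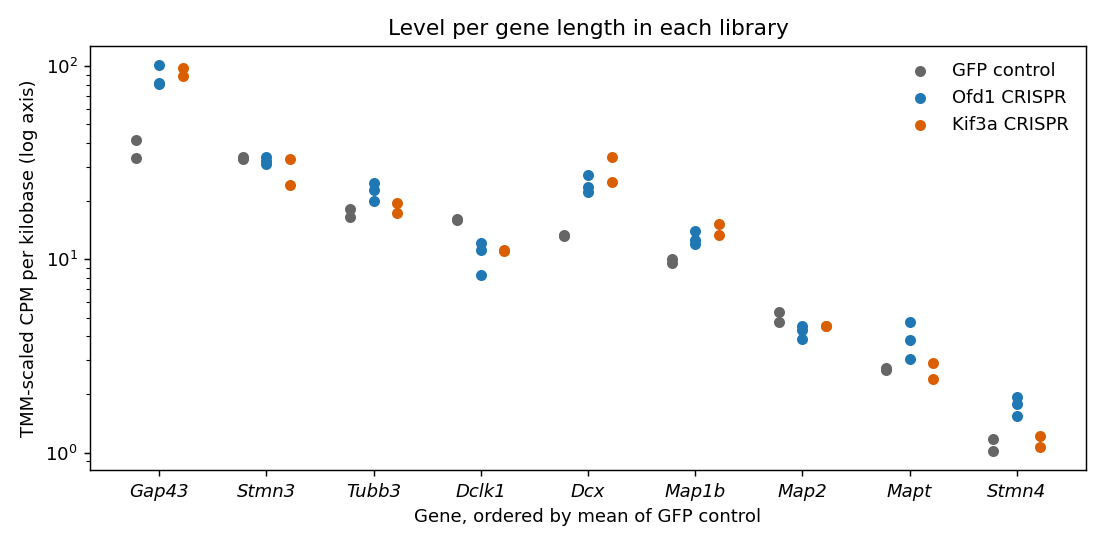
Level per kilobase of gene length (TMM-scaled CPM per kilobase, log axis) of 9 members in each of 7 libraries, coloured by group and ordered by the mean of GFP control. Gap43 and Stmn3 overlap in the controls, and Gap43 lies at 81.2 or more in every CRISPR library.

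Other genes of the microtubule and growth cone machinery were counted in 7 lists. Of all tested genes 6.79% were called higher and 8.09% lower in Ofd1 CRISPR, and 9.19% and 10.9% in Kif3a CRISPR. Of 11 tested tubulin genes 3 rose in Ofd1 CRISPR and 1 in Kif3a CRISPR, none fell by edgeR, and the medians were 0.21 and -0.22. The beta tubulin Tubb2b, a neuronal isotype, averaged 70.01 ± 7.28 CPM in the controls (SD, n = 2) and 104 ± 9.47 CPM (SD, n = 3) in Ofd1 CRISPR (log2 0.58, adjusted p = 0.00193), kept without any 1 library. It averaged 94.4 ± 1.74 CPM (SD, n = 2) in Kif3a CRISPR (0.43, adjusted p = 0.00982). The latter call was lost without GFP library 2 (0.108) or Kif3a library 1 (0.0753) or 2 (0.0647). At an unadjusted p under 0.05, 0 tubulin genes were lower in Ofd1 CRISPR and 3 in Kif3a CRISPR. In either direction, 3973 and 4371 of all 12875 tested genes stood under that threshold. DESeq2 called 0 and 1 of the tubulin genes lower, limma-voom 0 and 0. In Kif3a CRISPR edgeR called 2 lower with the replicate block, 2 without Ofd1 library 1 and 1 without Ofd1 library 3.

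Of 31 other microtubule-associated proteins 4 rose and 1 fell in Ofd1 CRISPR and 7 rose and 1 fell in Kif3a CRISPR, with medians of 0.031 and 0.00086. Nav2, a microtubule-tip protein of neurite growth, averaged 50.9 ± 2.28 CPM in the controls (SD, n = 2) and 89.3 ± 17.2 CPM (SD, n = 3) in Ofd1 CRISPR, with 101 ± 11.1 CPM (SD, n = 2) in Kif3a CRISPR (log2 0.81 and 0.99, adjusted p = 0.0025 and 0.000771). Map1a, the relative of Map1b found in mature neurons, rose by 0.73 and 0.84 on the log2 scale (adjusted p = 0.00427 and 0.00208), and Dpysl4, a collapsin response mediator, by 0.54 and 0.60 (adjusted p = 0.00349 and 0.00214). The Nav2 calls held without any 1 library; the Map1a call in Kif3a CRISPR was lost without Kif3a library 1 (0.0536) and the Dpysl4 call in Ofd1 CRISPR without GFP library 1 (0.0542).

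Of 20 tested growth cone genes other than the members 3 rose and 4 fell in Ofd1 CRISPR and 4 rose and 4 fell in Kif3a CRISPR, with medians of 0.025 and 0.029. Dbn1, the actin-binding protein drebrin, rose by 0.81 and 0.82 on the log2 scale (adjusted p = 0.00127 and 0.00109), and Ncam1, an adhesion molecule, fell, with log2 values of -0.74 and -0.89 (adjusted p = 0.00075 and 0.000226). These 4 calls held without any 1 library. Basp1 and Marcksl1, which like Gap43 are calmodulin-binding membrane proteins, are named outside the rule for named genes: their log2 fold changes were 0.072 and 0.095 in Ofd1 CRISPR (adjusted p = 0.526 and 0.37) and 0.034 and 0.023 in Kif3a CRISPR (adjusted p = 0.792 and 0.854).

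Of 13 tested enzymes that cut or modify microtubules 4 rose in Ofd1 CRISPR and 3 in Kif3a CRISPR, and with all libraries and no replicate block none fell by edgeR, DESeq2 or limma-voom (0 and 1 lower at an unadjusted p under 0.05). With the replicate number as a block, edgeR called 1 and 2 lower. Without Ofd1 library 3 it called 1 lower in each comparison, as it did in Kif3a CRISPR without Ofd1 library 1. Atat1, the alpha tubulin acetyltransferase, rose by 0.48 with either guide (adjusted p = 0.0153 and 0.0177), calls lost without GFP library 2 (0.177 and 0.161) and, in Kif3a CRISPR, without Kif3a library 1 (0.161) or 2 (0.0560). Of 8 neuronal kinesin motors 2 rose and 2 fell in Ofd1 CRISPR and 3 rose and 2 fell in Kif3a CRISPR. Among those that rose were Kif1a in Ofd1 CRISPR (log2 0.35, adjusted p = 0.0324) and Kif5a and Kif5c in Kif3a CRISPR (0.44 and 0.29, adjusted p = 0.0197 and 0.0224). Each of these calls was lost without GFP library 1 or 2, among others. Kif21a fell by 0.38 on the log2 scale with either guide (adjusted p = 0.00874 and 0.0104), and both calls were lost without GFP library 1 (0.0545 for each) or 2 (0.0788 and 0.0698), the second also without Kif3a library 1 (0.0989) or 2 (0.0639).

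Among 15 tested kinases and phosphatase subunits that act on such proteins, 1 rose and 3 fell in Ofd1 CRISPR and 1 rose and 4 fell in Kif3a CRISPR. Ppp2r2b, a neuronal regulatory subunit of protein phosphatase 2A, averaged 3.77 ± 0.159 CPM in the controls (SD, n = 2), 10.5 ± 3.59 CPM in Ofd1 CRISPR (SD, n = 3) and 9.89 ± 2.86 CPM in Kif3a CRISPR (SD, n = 2), a log2 rise by 1.49 and 1.40 (adjusted p = 0.00456 and 0.00648; the second was lost without Kif3a library 1, 0.121). Mapk10, which encodes the neuronal JNK3 kinase, fell by 0.63 in Kif3a CRISPR (adjusted p = 0.00214), kept without any 1 library. In Ofd1 CRISPR it fell by 0.39 (adjusted p = 0.0208), lost without GFP library 1 (0.135) or 2 (0.111) or Ofd1 library 1 (0.0516). Of 18 regulators of neuronal transcripts 2 fell in Ofd1 CRISPR, and 1 rose and 1 fell in Kif3a CRISPR. The gene that rose was Elavl2 (log2 0.37, adjusted p = 0.0140), a call lost without GFP library 1 or 2 or Kif3a library 1. Rbfox3 fell with both guides (log2 -0.43 and -0.47, adjusted p = 0.0127 and 0.0104). Both calls were lost without GFP library 2, the first also without GFP library 1 and the second without Kif3a library 1. Rest, a repressor of neuronal genes named here outside the rule, had log2 fold changes of -0.063 and -0.050 (adjusted p = 0.677 and 0.76). Of the 116 tested genes in the 7 lists, none was called between Ofd1 and Kif3a CRISPR by edgeR without a replicate block (0) or by limma-voom (0), 1 by DESeq2 and 2 by edgeR with the block, with 14 at an unadjusted p under 0.05.

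These list counts moved with single libraries, as did the background. Over the 116 genes, 29 were called in Ofd1 CRISPR (25.0%, beside 14.9% of all tested genes) and 32 in Kif3a CRISPR (27.6%, beside 20.1%). The lists were chosen with earlier results of these data known, so these shares are no test of enrichment. Without GFP library 1 it was 12 and 14, and without GFP library 2 it was 7 and 9. Without Ofd1 library 1, 2 or 3 it was 15, 19 or 40 in Ofd1 CRISPR, and without Kif3a library 1 or 2 it was 5 or 18 in Kif3a CRISPR. Leaving out a library of the group not compared gave 20 in Ofd1 CRISPR (without Kif3a library 1, and also without 2) and 31 to 42 in Kif3a CRISPR. With 1 library left in a group, the fit takes its spread from the other groups.

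**Figure D5:**
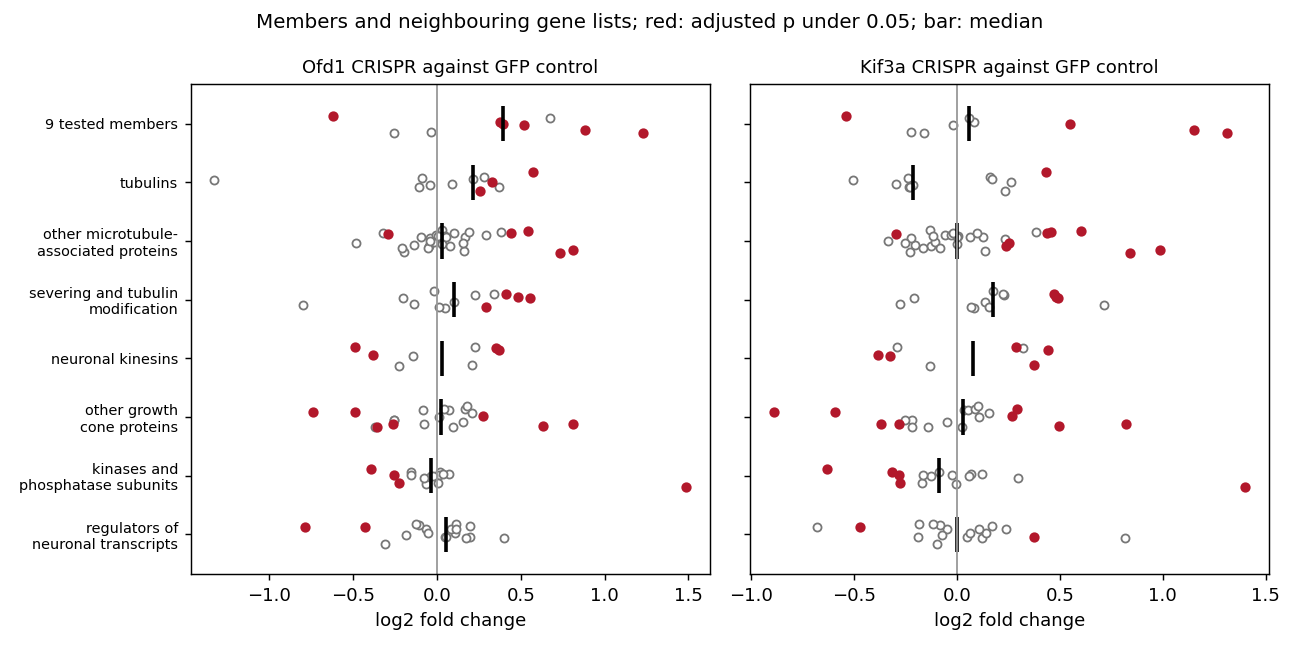
Log2 fold change of each tested gene (points) of the members and of 7 lists of related genes, for Ofd1 CRISPR (left) and Kif3a CRISPR (right) against GFP control; red points have an adjusted p under 0.05 and bars mark medians. The members' median is 0.39 on the left and 0.060 on the right, and the tubulin genes and the cutting and modifying enzymes have no red point below 0.

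The likeness of patterns is given as a description over 7 libraries that include the same controls, and the differences between groups enter each value. On log2(CPM + 1), Pearson's r was 0.98 between Dcx and Map1b, 0.96 between Gap43 and Dcx, 0.92 between Dclk1 and Map2 and -0.90 between Gap43 and Dclk1. The 5 genes outside the members with a mean of at least 2 CPM that were most like the mean of the members' standardised levels were Ptms (r = 0.99), Dnajc12, Pef1, Gga2 and Trpc4ap (r = 0.98 for each of these 4). Ptms stood at 518 to 524 CPM in the GFP libraries, 601 to 654 CPM in the Ofd1 libraries and 561 to 564 CPM in the Kif3a libraries. The members' mean joins genes that moved in opposite directions, such as Gap43 and Dclk1. On it the Kif3a libraries (-0.092 and -0.058) lay between the GFP and the Ofd1 libraries. The group means of Gap43, Dcx and Map1b were instead highest in Kif3a CRISPR, so likeness to the members' mean is not likeness to these 3.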

How the data were processed

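The authors deposited raw read counts per gene for 7 libraries (single-end, strand-specific mRNA libraries, 1 run, per the labels' protocols). The submitters' processing notes name STAR, DESeq2 and the mouse build mm9. Not given in the sources used here: the counting program, its strand setting and how reads that fit several genes were treated. Each column was matched to its sample by title. Counts were fitted with edgeR 4.0.16 (R 4.3.3, limma 3.58.1, DESeq2 1.42.0): filterByExpr kept 12875 of 24047 genes (99.96% of counts; 6795 genes had no count), TMM factors, 1 quasi-likelihood model of 3 groups with 4 residual degrees of freedom, and Benjamini-Hochberg adjusted p-values over all tested genes, called under 0.05. The biological coefficient of variation was 7.43%. SE is the log2 fold change divided by the square root of F. P-values measure the spread between these libraries. The script was tested on simulated data. Coordinates and promoter windows are RefSeq's on GRCm38.p6; lengths are from GENCODE M21 by symbol. Members and lists were chosen with earlier results of these data known. Named list genes were drawn from the at most 3 called with the smallest adjusted p per list and comparison, and not all of these are named. Alternatives were RLE factors, library totals alone, no filter, a mean CPM of at least 1, DESeq2, limma-voom, a replicate block, only the 2 groups compared, and leaving out each library.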

Additional observations from a re-analysis of the deposited data

How the results depend on the processing

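For the 27 log2 fold changes of the members, 206 of 216 values under the 8 other settings and 163 of 189 values with 1 library left out kept their direction and their side of the threshold. These totals include changes not called in the main fit, all 9 between Ofd1 and Kif3a CRISPR among them. The calls of Tubb3, Mapt and Map1b in Ofd1 CRISPR and of Dclk1 in Kif3a CRISPR were each lost in some fits with 1 library left out. The members higher in Ofd1 CRISPR numbered 2 to 5 with 1 library left out, against 5, and those lower 1 to 2, against 1; RLE factors, DESeq2, no filter and the replicate block also gave 2 lower, adding Map2 (adjusted p = 0.0493, 0.0453, 0.0457 and 0.0118). Members lower in Kif3a CRISPR numbered 0 to 1 with 1 library left out, and the 3 that rose were called in all 15 alternatives. Stmn4 in Ofd1 CRISPR was called with library totals alone (0.71, adjusted p = 0.0416) and with the replicate block (0.75, adjusted p = 0.0275), and Mapt was not called by limma-voom (adjusted p = 0.0555) or in a fit of only the 2 groups (0.0608). The sign turned for Mapt in Kif3a CRISPR with library totals alone (0.013) and, with 1 library left out, over the ranges -0.0059 to 0.17 (Tubb3 in Kif3a CRISPR), -0.16 to 0.11 (Mapt in Kif3a CRISPR), -0.038 to 0.17 (Stmn4 in Kif3a CRISPR), -0.20 to 0.066 (Dclk1, Ofd1 against Kif3a CRISPR) and -0.035 to 0.43 (Stmn3, Ofd1 against Kif3a CRISPR); the cause was not tested. The groups share replicate numbers. Deviations of same-numbered libraries correlated at 0.125 and 0.142 (GFP and Ofd1), -0.0015 (GFP and Kif3a, both numbers) and 0.299 and 0.241 (Ofd1 and Kif3a). These are deviations from the group mean, which in a group of 2 libraries are equal and opposite. The opposite sign for libraries 1 and 2 of unlike number, and the equal values for GFP and Kif3a, are thus fixed by the calculation. The labels tie the numbers to no batch, 2 pairs per comparison do not settle it, and whether a number marks a shared batch was not tested further. Only Ofd1 CRISPR has a replicate 3, so the block takes up Ofd1 library 3. The block fit and the fit without that library are therefore not independent: Gap43 in Ofd1 CRISPR rose by 1.28 in each. The block also takes up the difference between replicates 1 and 2, so the tests are not the same. By edgeR, Mapt in Ofd1 CRISPR had an adjusted p of 0.00816 with the block and 0.0623 without Ofd1 library 3. With the replicate block, 6 members rose and 2 fell in Ofd1 CRISPR, 3 rose and 1 fell in Kif3a CRISPR, and 1, Mapt, was higher in Ofd1 than in Kif3a CRISPR (0.53, adjusted p = 0.0480); over all genes it called 3496, 3575 and 191 in place of 1915, 2584 and 23. Between Ofd1 and Kif3a CRISPR, DESeq2 called 107 genes and no filter 80. Stmn4, with 371 reads in all, is the tested member with the fewest reads, and Stmn2 had none.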
